A study of Mus musculus with 2 samples.

Results

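The receptors for IL-2, IL-4, IL-7, IL-9, IL-15 and IL-21 share the common gamma chain, encoded by Il2rg, and were examined here in splenic and lung Tregs of mice given bleomycin (BLM). The 8 genes were taken by symbol, as the chains of this receptor family: the ligand-specific chains Il2ra, Il15ra, Il7r, Il4ra, Il9r and Il21r, and the shared chains Il2rb and Il2rg. All 8 were present among the 24346 gene symbols of both libraries. The animals were FDG mice (genotype Foxp3-DTR-GFP), whose GFP marks Foxp3-expressing cells, 10 to 16 weeks old. Spleen and lung groups alike received 50 μg of intratracheal BLM, and no untreated group was analysed here. GFP+CD4+ cells were isolated on day 15, and each tissue gave 1 library made from a pool of 3 mice. Differences between the tissues are therefore without replicates, and no test was made.

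Each of these cytokines binds a chain of its own and then recruits the common gamma chain, which carries JAK3. IL-2 and IL-15 in addition share the beta chain encoded by Il2rb. JAK1 is carried by that beta chain for IL-2 and IL-15, and by the ligand-specific chain for the others. The kinases phosphorylate STAT proteins, mainly STAT5 for IL-2, IL-7, IL-9 and IL-15, STAT6 for IL-4 and STAT3 for IL-21. Tregs make little IL-2 themselves, depend on IL-2 from other cells for their maintenance, and are known for a high level of CD25, the protein of Il2ra, and a low level of CD127, the protein of Il7r.

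Values are FPKM, fragment counts scaled to exon length and to library size, so levels of different genes are compared per length. Ratios are lung over spleen after values under 0.1 FPKM were set to 0.1, and none of the 8 genes was under that floor. The estimated reads summed to 9645617 for spleen and 12630206 for lung. From them a 95% counting interval (exact Clopper-Pearson) was set on each ratio. It covers counting error of reads only. PCR copies without molecular identifiers are not independent molecules, so the interval is too narrow for counting error of molecules. It says nothing about variation between mice. T cell identity was present in both libraries, with Cd3e at 513 FPKM in spleen and 369 in lung and all 10 genes of a T cell list within 2-fold. Foxp3 had 18.7 FPKM in spleen and 41.8 in lung. The libraries also held RNA of genes typical of other cells. All 12 genes of a macrophage list were detected in both, with a summed level of 782 FPKM in spleen and 27566 in lung, and 9 of the 12 were over 2-fold higher in lung. Lyz2, the lysozyme gene, was at 376 and 24947 FPKM and made up most of that sum in lung but not in spleen. Without it the list summed to 405 and 2619 FPKM. Adgre1, Csf1r and Mrc1 were the 3 within 2-fold. The 8 genes of a B cell list summed to 262 FPKM in spleen and 138 in lung, and none was at 0.

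None of the 8 receptor genes differed more than 2-fold between splenic and lung Tregs. Il7r and Il15ra were higher in lung, by 1.71-fold and 1.51-fold, and Il2ra, Il21r and Il9r were lower, by 1.51-fold, 1.49-fold and 1.72-fold. Il2rg was 1.12-fold higher, and Il2rb and Il4ra were 1.20-fold and 1.12-fold lower. Among the 12094 genes that reached 1 FPKM in either library, 17.8% were over 2-fold higher in lung and 15.5% over 2-fold lower. Among the 7279 genes at 10 FPKM or more, where 7 of the 8 receptor genes belong, 20.8% exceeded 2-fold in either direction. At 1.5-fold, 4 of the 8 receptor genes exceeded the limit, against 52.8% of the genes at 1 FPKM or more. The median size of the log2 ratio, regardless of direction, was 0.58 for the receptor genes and 0.63 for all genes at 1 FPKM or more. With direction, the median log2 ratio was -0.21 for the receptor genes and 0.03 for all genes. The plot of receptor FPKM by tissue gives both levels of each gene.

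**Figure D1:**
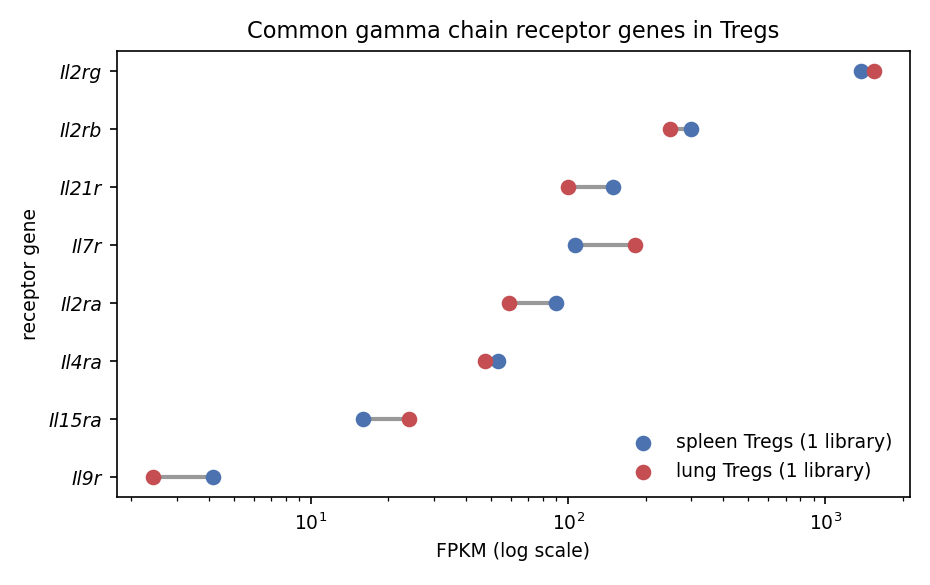
FPKM of the 8 receptor genes on a log axis, with 1 point for the splenic and 1 for the lung library of Tregs and a line joining them. The genes span from 2.42 FPKM (Il9r in lung) to 1542 FPKM (Il2rg in lung), and the order of levels is the same in both tissues apart from Il7r and Il21r, which change places.

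These ratios depend on how the libraries are scaled to each other. Rescaling each library to the same total (TPM) lowered the log2 ratios of the receptor genes by 0.43, because the lung FPKM summed to 808853 and the splenic FPKM to 599633. The median over all genes at 1 FPKM or more moved from 0.03 to -0.40. On this scale Il2ra, Il21r and Il9r were 2.04-fold, 2.01-fold and 2.31-fold lower in lung, so 3 of the 8 receptor genes passed 2-fold lower, beside 25.9% of all genes. None passed 2-fold higher on this scale, beside 13.1% of all genes. Scaling to equal sums after leaving out genes over 20-fold apart, chosen after the data had been seen, left Il9r alone past 2-fold lower, beside 23.4% of all genes. In contrast, scaling to the 10 T cell genes moved the receptor ratios by 0.07 on the log2 scale, and no receptor gene passed 2-fold. Il7r and Il15ra were higher in lung, and Il2ra, Il2rb, Il4ra, Il9r and Il21r lower, under each of the 5 scalings. Il2rg was the exception, being higher under 3 scalings and lower after rescaling to TPM and to equal sums. The plot of receptor ratios by scaling shows each value.

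**Figure D2:**
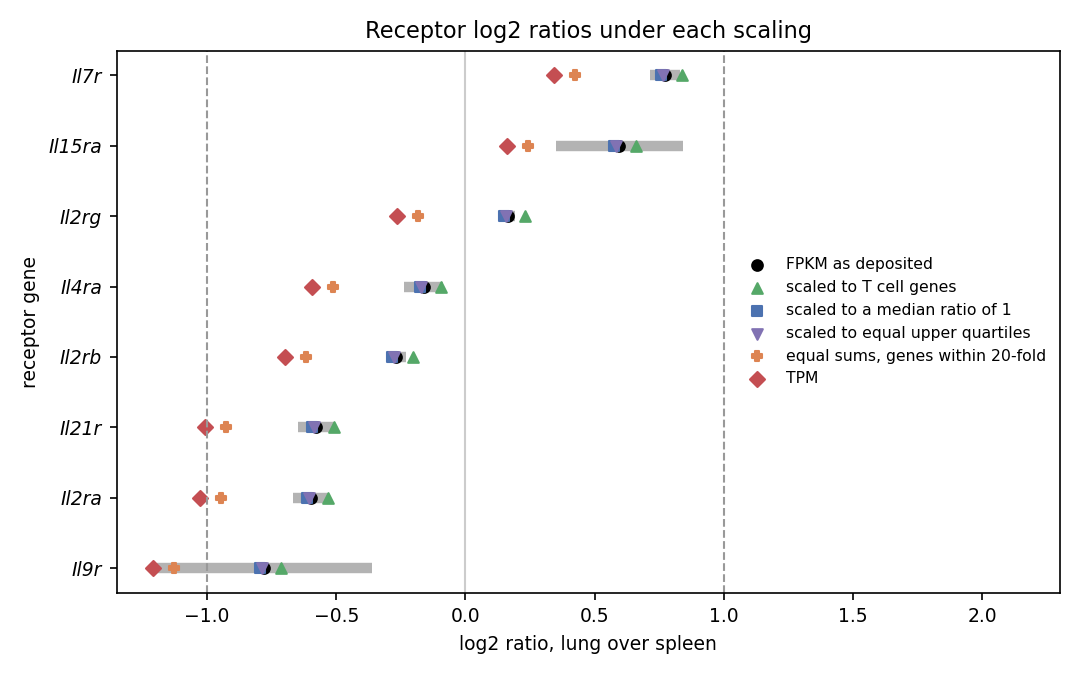
Log2 ratio of lung over spleen for each receptor gene, as deposited (black circles) and under 5 scalings between the libraries (other symbols). Grey bars give the 95% counting interval of the deposited ratio and dashed lines mark 2-fold, which Il2ra, Il21r and Il9r cross after rescaling to TPM.

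The IL-2 receptor has 3 chains, of which the alpha chain raises the affinity and the beta and gamma chains carry the signal. Il2ra, a gene of 8 exons on chromosome 2 (plus strand, GRCm38 or mm10, 11642807 to 11693193), had 89.4 FPKM in spleen and 59.1 in lung. These values correspond to about 3896 and 2924 reads, and the counting interval of the difference was 1.44-fold to 1.59-fold lower in lung. Il2rb, on the minus strand of chromosome 15 from 78479256 to 78495271, had 300.4 FPKM in spleen and 249 in lung, 1.20-fold lower with an interval of 1.17-fold to 1.24-fold. Il2rg, on the minus strand of chromosome X from 101264378 to 101268255, had 1375 FPKM in spleen and 1542 in lung, 1.12-fold higher with an interval of 1.10-fold to 1.14-fold. By level Il2rg ranked 50 of all symbols in spleen and 73 in lung, which makes it by far the most abundant gene of this family in either tissue. A gene model of the annotation named Gm20489 spans Il2rg on the same strand and is not a symbol of these files, so how reads were assigned where they overlap is not known.

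Relative to the beta and gamma chains, the alpha chain of the IL-2 receptor was lower in lung than in spleen, and such ratios within a library do not depend on scaling. There were 3.36 FPKM of Il2rb for each FPKM of Il2ra in spleen and 4.22 in lung. For Il2rg the corresponding values were 15.4 and 26.1. Per FPKM of Cd3e, a gene of the T cell receptor complex, there were 0.174 FPKM of Il2ra in spleen and 0.160 in lung, and 0.208 and 0.493 FPKM of Il7r. These 2 comparisons depend on the T cell gene chosen. Cd3e was itself 1.39-fold lower in lung, whereas Cd3g was 1.22-fold higher. Of the 10 T cell genes, 4 were higher and 6 lower in lung. Per FPKM of Foxp3, which was higher in lung, there were 4.77 FPKM of Il2ra in spleen and 1.41 in lung. The libraries also differed in other Treg genes. Ctla4, an inhibitory receptor, had 221 FPKM in spleen and 601 in lung, whereas Lrrc32, which displays latent TGF-β on Tregs, was at 69.4 and 30.4 FPKM. Of the 10 genes of the Treg list, 3 were over 2-fold higher in lung (Foxp3, Ctla4 and Tnfrsf4) and 2 over 2-fold lower (Lrrc32 and Gpr83). After rescaling to TPM, Ctla4 alone was over 2-fold higher and 4 were over 2-fold lower.

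Il15ra, which presents IL-15 to cells bearing the beta and gamma chains, lies 12.1 kb from Il2ra on the same strand of chromosome 2, from 11705290 to 11734317. It had 15.9 FPKM in spleen and 23.97 in lung, 1.51-fold higher with a counting interval of 1.27-fold to 1.79-fold. These neighbouring alpha chain genes thus went in opposite directions, and Il15ra per Il2ra was 0.178 in spleen and 0.406 in lung. Il15ra has 9 RefSeq transcripts of 784 to 1936 nt, so its reads are the least certain of the family, with 94.8 to 285 in spleen and 162 to 487 in lung according to the transcript used.

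Il7r carries the signal of IL-7, a survival factor of resting T cells, and also forms the receptor of TSLP together with Crlf2. It lies on the minus strand of chromosome 15 from 9505788 to 9530176. With 107 FPKM in spleen and 182 in lung, about 3681 and 7139 reads, it had the highest ratio of the family, 1.71-fold with a counting interval of 1.64-fold to 1.78-fold. It was the most abundant ligand-specific chain in lung, whereas Il21r held that place in spleen. Il7r exceeded Il2ra 1.19-fold in spleen and 3.08-fold in lung. Crlf2 was also higher in lung, with 13.1 FPKM in spleen and 24.2 in lung, so that Il7r per Crlf2 was 8.13 and 7.52. Tslp itself was at 0.417 FPKM in spleen, about 3.98 reads, and was listed at 0 in lung.

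Il4ra, which pairs with the gamma chain for IL-4 and with Il13ra1 for IL-13, and Il21r, the receptor of IL-21, a cytokine of follicular helper T cells, lie 23954 bp apart on the plus strand of chromosome 7, Il4ra from 125552120 to 125579474 and Il21r from 125603429 to 125633570. Il4ra had 53.3 FPKM in spleen and 47.7 in lung, 1.12-fold lower with a counting interval of 1.06-fold to 1.18-fold. Il13ra1 had 2.17 FPKM in spleen and 9.88 in lung, 4.55-fold higher. Accordingly, Il4ra exceeded Il13ra1 24.5-fold in spleen and 4.83-fold in lung. Il21r had 149 FPKM in spleen and 100.2 in lung, 1.49-fold lower with an interval of 1.42-fold to 1.57-fold. Il9r, the receptor of IL-9, on the minus strand of chromosome 11 from 32187541 to 32200279, was the least abundant member at 4.16 FPKM in spleen and 2.42 in lung. It rested on about 125 and 83.0 reads, and its interval of 1.29-fold to 2.28-fold lower was the widest of the family.

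The 6 ligand-specific chains summed to 419 FPKM in spleen and 415 in lung, so on the deposited scale their total was nearly equal while its make-up differed. This sum was formed after the values had been seen, and after rescaling to TPM it was 698 in spleen and 514 in lung. The shares do not depend on the scaling. Il7r made up 25.4% of the sum in spleen and 43.8% in lung. Il21r made up 35.7% and 24.1%, and Il2ra 21.3% and 14.2%. Il4ra held 12.7% in spleen and 11.5% in lung, Il15ra 3.795% and 5.77%, and Il9r 0.993% and 0.583%. Il2rg exceeded the whole sum 3.28-fold in spleen and 3.71-fold in lung, so its mRNA was in excess of the 6 ligand-specific chains together in both libraries. The sum leaves out the other shared chain, Il2rb, at 300.4 FPKM in spleen and 249 in lung.

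**Figure D3:**
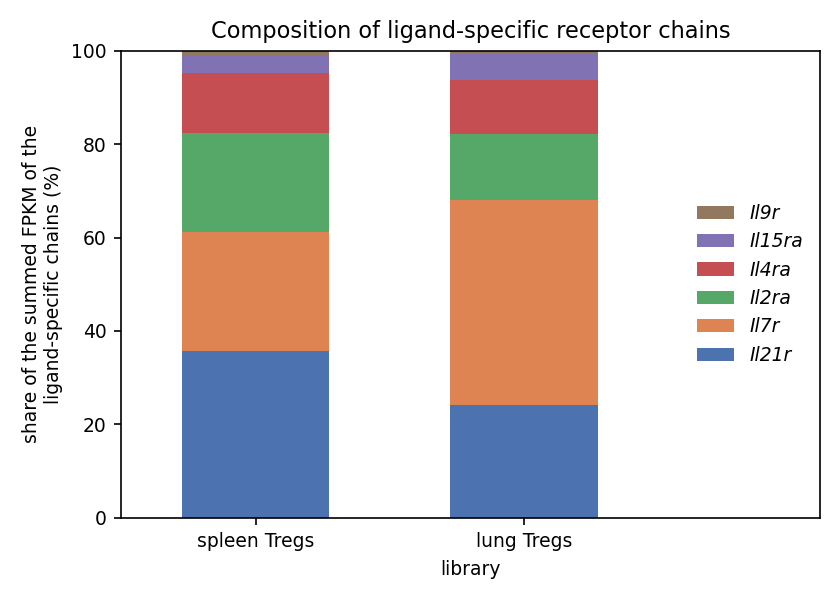
Share of each ligand-specific chain in the summed FPKM of the 6 chains, in percent, for the splenic and the lung library. The Il7r segment widens from 25.4% in spleen to 43.8% in lung, and the segments of Il21r and Il2ra narrow.

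Several receptor genes are also used by cells other than Tregs, such as Il4ra and Il15ra by macrophages, Il21r by B cells and Il7r by other lymphocytes. Macrophage genes were higher in lung and B cell genes lower, as given above. Among the 8 B cell genes, all were lower in lung and 3 of the 7 at 1 FPKM or more were over 2-fold lower. Of 8 genes of NK and CD8 T cells, 2 were over 2-fold higher in lung (Cd8a and Cd8b1) and 2 over 2-fold lower (Ncr1, at 0 in lung, and Eomes), and the list summed to 54.7 FPKM in spleen and 123 in lung. Neutrophil genes, of which 7 of 8 symbols were listed, summed to 451 FPKM in spleen and 1214 in lung, and Camp was at 0 in lung. The 7 dendritic cell genes summed to 15.8 and 31.1 FPKM, with Clec9a and Batf3 at 0 in lung. The 6 mast cell genes, a cell type known to carry the IL-9 receptor, summed to 3.10 FPKM in spleen and 2.66 in lung, with Mcpt4 at 0 in both and Gata2 at 0 in lung. Genes of fibroblasts summed to 0.492 and 48.9 FPKM, with Mfap4 at 0 in both and Col3a1, Pdgfra and Lum at 0 in spleen. Those of lung epithelium summed to 12.8 and 3133 FPKM (11.3 and 113 without Scgb1a1), with Sftpc, Sftpb and Krt8 at 0 in spleen. Those of endothelium summed to 55.5 and 48.9 FPKM, most of it Pecam1 at 54.8 and 31.7, and to 0.722 and 17.2 without Pecam1. Emcn was at 0 in both, Cdh5 and Tek at 0 in spleen and Kdr at 0 in lung. Of the genes in these lists that reached 1 FPKM in either library, 4 of 7 neutrophil, 2 of 6 dendritic cell, 0 of 2 mast cell, 5 of 5 fibroblast, 6 of 8 epithelial and 3 of 4 endothelial genes were over 2-fold higher in lung. Over 2-fold lower in lung were 2 of the dendritic cell genes (Flt3, with 1.43 and 0.172 FPKM, and Batf3), 1 of the neutrophil genes (Camp) and 1 of the epithelial genes (Epcam, with 8.75 FPKM in spleen and 1.79 in lung). After rescaling to TPM, Siglech, Klre1 and Pecam1 also passed 2-fold lower in their lists, and 6 of the 7 B cell genes did. The part of such cells in the levels of the 8 receptor genes, Il2rb and Il2rg among them, was not tested. Fewer cells of a type and less RNA per cell cannot be told apart in these pooled samples.

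Genes of the cytokines themselves were at low levels or at 0. Il2, Il7 and Il15 were at 0.523, 0.0851 and 1.18 FPKM in spleen and listed at 0 in lung, and Il9 and Il13 were at 0 in both. For Il15, a value of 0 in lung was taken to allow a count of up to 3. Set against about 12.7 reads in spleen, that count made Il15 4.81-fold lower in lung. The counting error of the splenic reads was not included, so this value is not a lower bound. Il21 had 2.24 FPKM in spleen and 0.825 in lung, 2.72-fold lower. Il4 was the only ligand with a higher value in lung, at 1.98 FPKM in spleen and 7.73 in lung, a 3.89-fold difference on about 8.01 and 35.4 reads. Thus of 8 ligands, 3 reached 1 FPKM, of which 1 was over 2-fold higher and 2 over 2-fold lower in lung.

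Receptor chains outside the family gave a contrast. Of 7 related chains, 5 reached 1 FPKM, and all 5 were higher in lung. Csf2ra and Csf2rb, the chains of the GM-CSF receptor that macrophages use, were at 5.35 and 1.80 FPKM in spleen and at 54.5 and 16.9 in lung, 10.2-fold and 9.42-fold higher. Together with Il13ra1 they were the 3 chains over 2-fold higher. Genes of macrophages, neutrophils, fibroblasts and lung epithelium were also higher in lung as list sums, and so were those of endothelium without Pecam1. Which cells these chains came from was not tested. Crlf2 and Il3ra were within 2-fold, and Il13ra2 was at 0 in both tissues. Il5ra, under 1 FPKM in both, had 0.634 FPKM in spleen and 0.0762 in lung.

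The kinases and STAT genes of the pathway stayed within 2-fold on the deposited scale, all 6 of those reported here. Jak1, the kinase of the chains that signal with the gamma chain, had 244 FPKM in spleen and 163 in lung. Jak3, the kinase of the gamma chain, had 65.2 and 58.0. Of the STAT5 genes, Stat5a was at 22.3 and 23.96 FPKM and Stat5b at 54.4 and 37.6. Stat6 was at 126 and 83.8 FPKM, and Stat3 at 89.3 and 108. The direction of Stat3 and Stat5a, the only ones higher in lung, turned after rescaling to TPM, where Jak1 and Stat6 passed 2-fold lower. Among 7 adaptor genes, Gab2, a docking protein for PI3 kinase, was 19.6-fold higher in lung (0.565 FPKM in spleen and 11.1 in lung). The part of cells other than Tregs in the level of Gab2 and the other adaptors was not tested. Pik3cd, the catalytic subunit of PI3 kinase in leukocytes, was 2.51-fold lower (94.1 and 37.5 FPKM), and Sos1, a Ras exchange factor, was 2.26-fold lower (3.07 and 1.36 FPKM). The other 4 adaptors were within 2-fold, although Pik3r1, a regulatory subunit of PI3 kinase (24.9 and 15.9 FPKM), passed 2-fold lower after rescaling to TPM.

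Genes that answer to these receptors did not share a direction. Of 6 feedback inhibitors, Socs3 alone was over 2-fold higher, with 39.2 FPKM in spleen and 81.7 in lung, and it was under 2-fold after rescaling to TPM. Cish, a direct target of STAT5, had 113 FPKM in spleen and 144 in lung, a direction that turned after rescaling to TPM. Socs2, another STAT5 target, was at 24.3 and 38.0 FPKM, Socs1 at 74.4 and 68.2, Ptpn2 at 82.2 and 52.4, and Ptpn6 at 211 and 150. After rescaling to TPM, Ptpn2 was the 1 inhibitor over 2-fold lower. Of 12 further targets of IL-2 and STAT5, 3 were over 2-fold higher in lung and 1 was over 2-fold lower. Gzmb, which encodes granzyme B, had 7.51 FPKM in spleen and 63.1 in lung, 8.40-fold higher. Osm, a cytokine gene, was 3.58-fold higher (20.04 and 71.7 FPKM), and Prdm1, which encodes the Blimp-1 factor of effector Tregs, 2.77-fold higher (5.79 and 16.03 FPKM). Myc was 2.11-fold lower, at 80.3 FPKM in spleen and 38.1 in lung. The survival gene Bcl2 was at 103 and 56.4 FPKM, its relative Bcl2l1 at 21.5 and 40.4, and Mcl1 at 186 and 203. Bcl2 passed 2-fold lower after rescaling to TPM, which made 2 targets lower and left 3 higher. The median log2 ratio of these 12 genes was 0.01, beside 0.03 for all genes at 1 FPKM or more. Macrophages and cytotoxic lymphocytes also express some of them, and that part was not tested.

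Il7r is commonly expressed along with genes of resting T cells, and Foxo1 encodes a factor known to drive it. Of 7 such genes, 6 were lower in lung, 2 of them over 2-fold, while Il7r was higher. Foxo1 had 91.2 FPKM in spleen and 45.2 in lung, 2.02-fold lower. Bach2, a repressor of effector genes, was at 8.85 and 2.01 FPKM, 4.402-fold lower. Klf2, Tcf7, S1pr1 and Lef1 were lower within 2-fold on the deposited scale. After rescaling to TPM, Klf2 and Tcf7 passed as well and 4 of the 7 were over 2-fold lower, whereas after scaling to T cell genes Foxo1 fell short and Bach2 alone was. Ccr7, a receptor for lymph node homing, had 311 FPKM in spleen and 361 in lung, a direction that turned after rescaling to TPM. The plot of log2 ratios by list sets the receptor genes beside these groups.

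**Figure D4:**
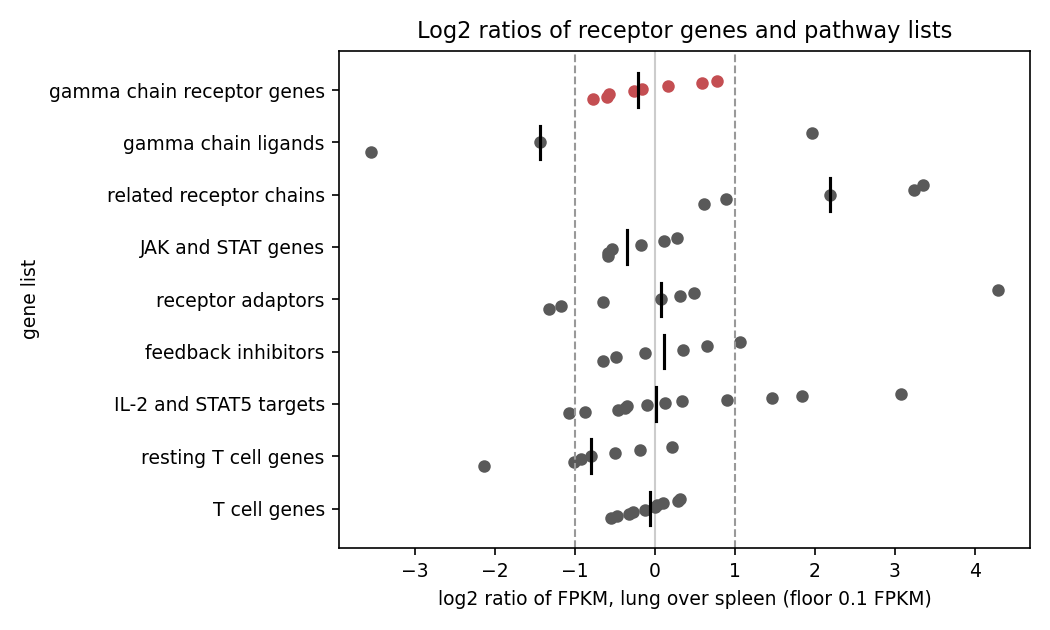
Log2 ratio of FPKM, lung over spleen, for each gene that reached 1 FPKM in either library (points), by gene list, with the median of each list as a black bar and 2-fold as dashed lines. All 8 receptor genes (red), all 6 JAK and STAT genes and all 10 T cell genes lie within 2-fold on the deposited scale (3 receptor genes and 2 JAK and STAT genes pass 2-fold lower after rescaling to TPM). Every other list shown has genes beyond 2-fold: ligands, related receptor chains, adaptors, feedback inhibitors, IL-2 and STAT5 targets and resting T cell genes.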

How the data were processed

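The data are 1 splenic and 1 lung bulk RNA-seq library of GFP+CD4+ cells, prepared with the SMART-Seq HT kit and sequenced single-end at 75 bases. Mapping by the authors to mm10 used TopHat2 2.1.1, Bowtie2 2.2.8 and SAMtools 0.1.18, and Cuffdiff 2.2.1 gave the deposited FPKM. The annotation and any scaling between libraries are not given in the sources used here.

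The receptor genes and the lists were chosen with earlier results of these data known. Named were the 8 receptor genes and, of each pathway list, genes over 2-fold that reached 1 FPKM in either library and those with the highest level. Some genes of these pathways are not analysed here and enter no count, whereas counts do hold listed genes that the text does not name. Other listed genes named in the text were chosen after their values were seen.

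Gene positions came from GENCODE M21 (GRCm38). Reads were estimated from RefSeq-tied transcript lengths, found for 22019 symbols, with a fragment length of 200 and an SD of 80. A single read was set to the commonest value of FPKM times effective length in kb, counted within a 1% window among transcripts of at least 1500 nt. This product was 0.0964 in spleen and 0.0849 in lung. Among single-length genes with 1 to 10 reads, 73.0% in spleen and 75.1% in lung lay within 0.1 of a whole number. The search for the value of 1 read was tested on data simulated with the same effective lengths. That test cannot judge the assumed fragment length or genes with several transcripts. Alternatives were other floors, pseudocounts, scalings, filters, folds and at least 3 reads per library. Computation used numpy 2.4.6, scipy 1.17.1 and pandas 2.3.3 under Python 3.11.15, and plots matplotlib 3.10.9.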

Additional observations from a re-analysis of the deposited data

How the results depend on the processing

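No paired analysis was possible because each tissue had 1 library, and for the same reason no library could be left out. The count of receptor genes over 2-fold higher in lung was 0, beside 17.8% of all genes as deposited. It was also 0 under all 12 alternatives in floor, pseudocount, scaling, filter and reads. The count over 2-fold lower was 0 as deposited and 3 after rescaling to TPM, beside 15.5% and 25.9% of all genes. It was 1 after scaling to equal sums over genes not over 20-fold apart, beside 23.4% of all genes. That scaling was added after the data had been seen. With a 1.5-fold limit the counts were 2 higher and 2 lower, and 52.8% of all genes exceeded it in either direction. With limits of 4-fold and 20-fold the counts were 0, and the share of all genes past these limits was not determined. The median log2 ratio of the receptor genes, -0.21 as deposited, was -0.65 after rescaling to TPM, -0.57 with equal sums and -0.15 after scaling to T cell genes. Il2rg turned from a log2 ratio of 0.17 to -0.27 after rescaling to TPM and to -0.18 with equal sums. The other 7 receptor genes kept their direction, and their log2 ratios ranged from 0.34 to 0.84 for Il7r and from -1.03 to -0.53 for Il2ra. Read depth limits Il9r and Il15ra most, whereas the missing replicates limit all of the ratios.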

Other observations

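The genes next to the receptor genes were read as well, chosen as the nearest protein-coding genes on either side that the files list under their current symbol or a RefSeq synonym, and after the receptor values had been seen. Around the alpha chain pair on chromosome 2, Rbm17, a splicing factor gene, had 93.1 FPKM in spleen and 73.5 in lung, and Fbxo18, which encodes a DNA helicase, had 20.2 and 25.1. Both were within 2-fold. Around the pair on chromosome 7, Nsmce1 was at 98.8 and 94.4 FPKM, and Gtf3c1, a subunit of a transcription factor of RNA polymerase III, at 9.62 and 2.09, 4.60-fold lower. On chromosome X, Gm614, 385 bp from Il2rg, had 1.43 FPKM in spleen and 0.158 in lung, 9.08-fold lower, whereas Med12, a Mediator subunit gene on the other side, had 15.6 and 17.5. Snrnp25, which lies 5135 bp from Il9r, was at 42.7 and 92.9 FPKM, 2.18-fold higher, while Il9r was lower. Nsg2, on the other side of Il9r, was at 19.3 and 14.3 FPKM. Beside Il2rb, C1qtnf6 was at 2.26 and 1.90 FPKM, and Tmprss6 was at 0.0323 FPKM in spleen and listed at 0 in lung. Il7r lay between Capsl, at 2.48 FPKM in spleen and listed at 0 in lung, and Spef2, at 2.01 and 4.15 FPKM.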
